A study of Mus musculus with 6 samples.

Results

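The 9 genes described here encode the receiving end of the Sonic hedgehog pathway: the receptor Ptch1, the decoy receptor Hhip, the co-receptors Boc and Cdon, the signal transducer Smo, the inhibitor Sufu and the transcription factors Gli1, Gli2 and Gli3. They were taken as the entries of the deposited table whose gene symbol equals one of these names, and each of the 9 had 1 entry among 54884. Messenger RNA was measured in cultured neural stem cells of C57BL/6J mice, taken from the hippocampus at embryonic day 14 and used between passages 3 and 8. In 1 group the cells had received a lentivirus carrying an siRNA against circHIPK2, a circular RNA made from the Hipk2 gene, and in the other a lentivirus carrying the control siRNA circCon. Each group had 3 libraries. Every library thus came from lentivirus-transduced cells, and untransduced cells were not analysed here. Nothing states that the 3 libraries of a group were separate cultures, so tests measure the spread between libraries, which may be technical.

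In hedgehog signalling, Ptch1 holds Smo inactive until a hedgehog ligand binds Ptch1, helped by the co-receptors Boc and Cdon. Active Smo gathers in the primary cilium and releases the Gli factors from Sufu, so that Gli2 acts as an activator and less Gli3 is cut into a repressor. Gli1, Ptch1 and Hhip are themselves transcribed in response to Gli activity, and the pathway is known for maintaining neural stem cells of the hippocampus. The Gli proteins are regulated after translation, so the mRNA values below are not a measure of pathway activity.

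Values are FPKM, fragments scaled to transcript length and to the library's mapped fragments, as deposited. Read from the steps of low FPKM values, depth was between 18320000 and 20990000 fragments in siRNA libraries and between 19880000 and 21900000 in control libraries, and these depths and the fragment numbers below may be up to 2 times as high, since smaller steps also occurred. Of 12 neural stem cell markers, 11 averaged at least 1 FPKM, and their sum was 1773 to 2234 FPKM in siRNA libraries and 1958 to 2505 FPKM in control libraries. Glial markers were present too. All 5 astrocyte markers averaged at least 1 FPKM, with sums of 193.3 to 433.5 FPKM in siRNA libraries and 223.5 to 408.9 FPKM in control libraries. All 7 oligodendrocyte-lineage markers did so, with sums of 623.0 to 779.1 and 778.7 to 847.1 FPKM in the same order. Markers of microglia summed to at most 0.922 FPKM and those of meninges and mesenchyme to at most 0.187 FPKM in any library, with Cx3cr1, Ptprc and Lum listed at 0 throughout. The groups stood apart in other ways. A set of 9 entries, AY036118 of the ribosomal RNA locus and 8 others (CT010467.1, Lars2, Gm15564, Gm26917, Gm23935, Gm24270, Gm24187 and Gm42418), were each higher in all siRNA libraries than in any control. Together they held 11.5%, 3.24% and 19.9% of summed FPKM in siRNA libraries 1 to 3, against 0.58%, 0.43% and 0.32% in control libraries 1 to 3. Of 10 liver genes, all with an entry, the summed level was 2.10 to 2.21 FPKM in siRNA libraries and 39.9 to 64.8 FPKM in control libraries. For each tested hedgehog gene a log2 fold change is also given with the set of 9 entries from AY036118 to Gm42418 removed and each column rescaled. The set is called the ribosomal RNA set below. That is a short name and does not state that each entry is a ribosomal RNA. Summed neuron markers also stood apart, at 91.2 to 102.7 FPKM in siRNA libraries and 116.3 to 125.9 FPKM in control libraries. Most of that sum was Map2, at 84.8 to 93.7 FPKM with the siRNA and 106.4 to 115.3 FPKM in the controls. Tubb3 lay apart in the same direction, while Dcx, Neurod1, Stmn2 and Rbfox3 overlapped between groups. Summed ventral forebrain markers also lay apart, at 243.7 to 284.4 FPKM with the siRNA and 284.6 to 324.6 FPKM in the controls. Most of this sum was Olig2, which overlapped between groups. Of the 13702 entries averaging 1 FPKM or more, 22.1% had all siRNA libraries below all controls. The part of the liver, neuron and ventral forebrain transcripts in the results was not tested.

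The 9 genes ranged over more than 2 orders of magnitude, and their order by group mean was the same in both groups except for Hhip and Gli3. Smo was the most abundant at 19.3 to 23.4 FPKM over all libraries, followed by Ptch1 at 9.45 to 14.9 FPKM and Sufu at 8.75 to 12.4 FPKM. The co-receptors followed, with Cdon at 2.42 to 5.03 FPKM and Boc at 2.55 to 3.50 FPKM. Gli2 lay at 0.568 to 2.52 FPKM, Hhip at 0.682 to 1.05 FPKM and Gli3 at 0.319 to 1.45 FPKM. Gli1 came last at 0.0221 to 0.114 FPKM. Among neighbours in this order, Ptch1 and Sufu, Cdon and Boc, Gli2 and Hhip, and Hhip and Gli3 had ranges that overlapped. Smo lay above Ptch1, Sufu above Cdon, Boc above Gli2 and Gli3 above Gli1 in each library. Against all 54884 entries, 94.3% had a lower mean than Smo and 61.3% a lower mean than Gli1.

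**Figure D1:**
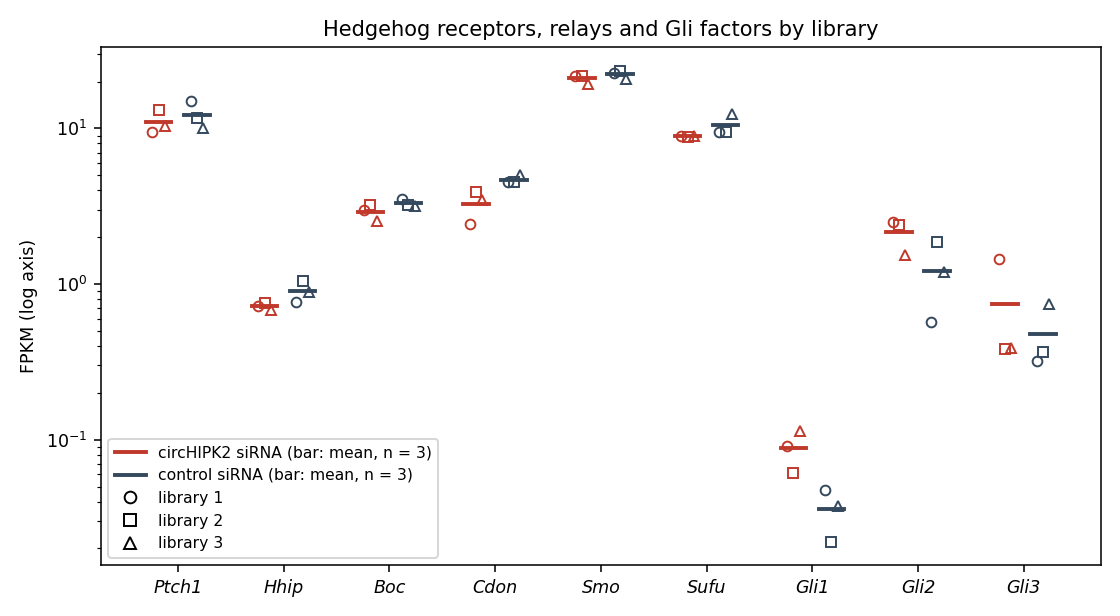
FPKM on a log axis of the 9 genes in each library, with circHIPK2 siRNA libraries in red to the left of control libraries in dark blue and bars at the group means (n = 3 each). Smo sits highest at 19.3 to 23.4 FPKM and Gli1 lowest at 0.0221 to 0.114 FPKM, and the groups lie apart for Hhip, Cdon, Sufu and Gli1. Among the 13702 entries averaging 1 FPKM or more, siRNA libraries lay entirely below the controls for 22.1% and entirely above for 2.65%. These shares do not cover Hhip and Gli1, which averaged under 1 FPKM.

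The comparison asks whether silencing circHIPK2 changes the expression of these genes. Groups were compared with limma on log2(FPKM + 1) over 13702 entries that averaged 1 FPKM or more. Of these, 0.255% were called at an adjusted p below 0.05, 16 higher and 19 lower with the siRNA. The split was 8 and 15 with median-of-ratios scaling and 4 and 12 with quantile normalization. Of the 9 hedgehog genes, Ptch1, Boc, Cdon, Smo, Sufu and Gli2 were tested, while Hhip, Gli1 and Gli3 averaged under 1 FPKM. None of the 6 was called by limma with Benjamini-Hochberg adjustment, and the lowest adjusted p was 0.215, that of Cdon. At an unadjusted p below 0.05, Gli2 was higher and Cdon lower, while 1.83% of all entries were higher and 15.5% lower at that level. The siRNA libraries lay entirely below the controls for Cdon and Sufu among the 6, against 22.1% of all entries, and entirely above for 0 of the 6, against 2.65%. The median log2 fold change of the 6 was −0.14, beside −0.12 for all entries tested.

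**Figure D2:**
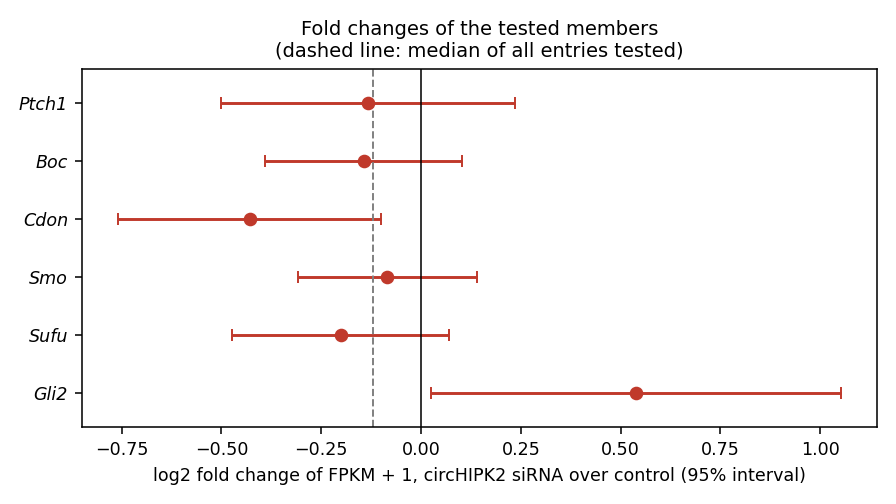
Log2 fold change of FPKM + 1, circHIPK2 siRNA over control, for the 6 tested genes, with 95% intervals from limma (3 libraries per group). The dashed line is the median of all entries tested, −0.12. The intervals of Cdon and Gli2 leave out 0 before adjustment, and those of Ptch1, Boc, Smo and Sufu include it.

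Ptch1, the twelve-pass membrane receptor, was measured at 9.45, 13.2 and 10.4 FPKM in siRNA libraries 1 to 3, against 14.9, 11.6 and 10.1 FPKM in control libraries 1 to 3. The groups overlapped widely, with the highest and the lowest libraries in opposite groups. The means were 11.02 ± 1.96 FPKM with the siRNA and 12.2 ± 2.45 FPKM in the controls (SD, n = 3 each). On the log2 scale the difference was −0.13 (SE 0.16, 95% interval −0.50 to 0.24), with a Benjamini-Hochberg adjusted p of 0.671 from limma. It was 0.06 with the ribosomal RNA set removed and 0.01 without control library 1, the library with the highest value. Ptch1 varied more within groups than most genes of its level. Its pooled coefficient of variation was 19.1%, beside a median of 10.2% over the 5719 entries with a mean within 2-fold of its own.

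Hhip, the membrane-anchored protein that binds hedgehog ligands away from Ptch1, had 0.722, 0.759 and 0.682 FPKM in siRNA libraries 1 to 3, against 0.766, 1.05 and 0.885 FPKM in control libraries 1 to 3. Each siRNA library lay below each control, the nearest pair being 0.759 and 0.766 FPKM. The pooled coefficient of variation of Hhip was 12.8%, beside a median of 25.4% over the 3282 entries within 2-fold of its mean. The means were 0.721 ± 0.038 FPKM with the siRNA and 0.900 ± 0.142 FPKM in the controls (SD, n = 3 each; exact two-sided permutation p = 0.1, the lowest value possible with 3 against 3 libraries). It was below the filter; fitted with no filter, its log2 fold change was −0.14 (limma, Benjamini-Hochberg adjusted p = 0.879).

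Cdon, an immunoglobulin-superfamily co-receptor, had the lowest log2 fold change of the 6. It was measured at 2.42, 3.93 and 3.47 FPKM in siRNA libraries 1 to 3, against 4.53, 4.51 and 5.03 FPKM in control libraries 1 to 3. The controls lay close together, and the siRNA libraries lay below them and were spread, with library 1 lowest. The means were 3.27 ± 0.774 FPKM with the siRNA and 4.69 ± 0.290 FPKM in the controls (SD, n = 3 each), a ratio of 0.697. The log2 fold change was −0.43 (SE 0.14, 95% interval −0.76 to −0.10), with a Benjamini-Hochberg adjusted p of 0.215 from limma. With the ribosomal RNA set removed it was −0.30 (adjusted p = 0.538), and without siRNA library 1 it was −0.28 (adjusted p = 0.383). Over the 17 other settings that gave a value, the adjusted p ran from 0.0579 with library weights to 0.713 with no filter. Gm24188 and Gm25630, an rRNA and an snRNA gene that overlap Cdon, had at most 0.724 and 0.639 FPKM.

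Boc, the related co-receptor, had 2.98, 3.20 and 2.55 FPKM in siRNA libraries 1 to 3, against 3.50, 3.24 and 3.19 FPKM in control libraries 1 to 3. The groups met at 3.20 FPKM in siRNA library 2 and 3.19 FPKM in control library 3. The log2 fold change was −0.14 (SE 0.11, 95% interval −0.39 to 0.10; limma, Benjamini-Hochberg adjusted p = 0.492), and 0.01 with the ribosomal RNA set removed. A ratio of 2 genes within a library does not depend on how that library was scaled. The Boc to Cdon ratio of FPKM was 1.23, 0.814 and 0.736 in siRNA libraries 1 to 3 and 0.771, 0.718 and 0.636 in control libraries 1 to 3. In siRNA library 1 alone did Boc exceed Cdon. The log2 ratio was higher by 0.36 with the siRNA (exact two-sided permutation p = 0.2, adjusted p = 0.4 over the 4 ratios tested), and by 0.13 without siRNA library 1.

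Smo, the seven-pass protein that Ptch1 restrains, was the steadiest of the 9 within groups. It had 21.8, 21.7 and 19.3 FPKM in siRNA libraries 1 to 3, against 22.7, 23.4 and 20.6 FPKM in control libraries 1 to 3. The groups overlapped. The means were 20.9 ± 1.44 FPKM with the siRNA and 22.3 ± 1.45 FPKM in the controls (SD, n = 3 each), and the pooled coefficient of variation was 6.69%. The log2 fold change was −0.08 (SE 0.10, 95% interval −0.31 to 0.14; limma, Benjamini-Hochberg adjusted p = 0.656), and its sign turned to 0.03, 0.06 and 0.12 with median-of-ratios scaling, quantile normalization and removal of the ribosomal RNA set. The Ptch1 to Smo ratio was 0.432, 0.609 and 0.539 in siRNA libraries 1 to 3 and 0.656, 0.495 and 0.491 in control libraries 1 to 3. The groups overlapped in this ratio too, and the log2 ratio differed by −0.06 (exact two-sided permutation p = 0.9, also 0.9 adjusted over the 4 ratios). Gm13717, a processed pseudogene that overlaps Smo on the same strand, had at most 1.84 FPKM, so reads of the pair may be mixed.

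Sufu, which binds Gli proteins and keeps them from acting, had 8.92, 8.75 and 8.96 FPKM in siRNA libraries 1 to 3, against 9.46, 9.43 and 12.4 FPKM in control libraries 1 to 3. The siRNA libraries lay close together and below all controls, and control library 3 stood above the rest. The means were 8.88 ± 0.114 FPKM with the siRNA and 10.4 ± 1.72 FPKM in the controls (SD, n = 3 each). On the log2 scale the difference was −0.20 (SE 0.12, 95% interval −0.47 to 0.07; limma, Benjamini-Hochberg adjusted p = 0.389). Without control library 3 it was −0.08, and with the ribosomal RNA set removed it was −0.01.

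**Figure D3:**
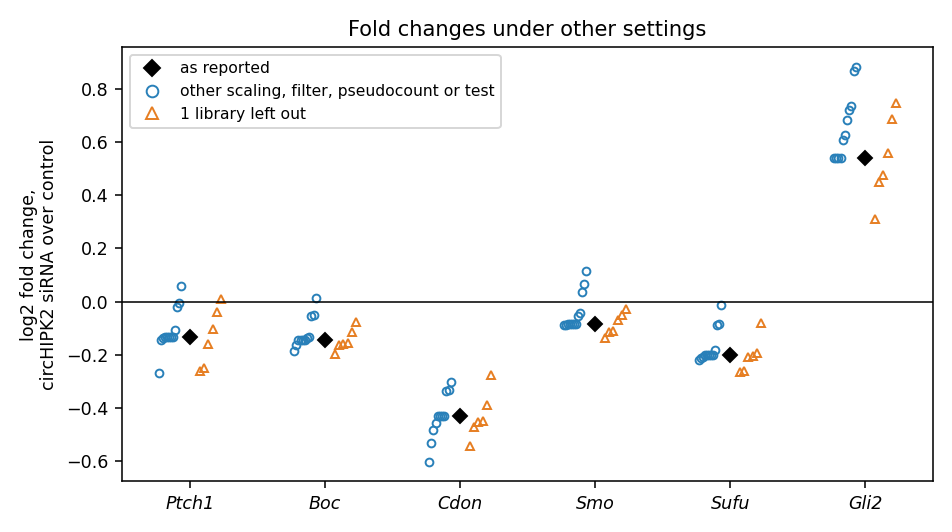
Log2 fold change, circHIPK2 siRNA over control, of the 6 tested genes as reported (black diamonds), with another scaling, filter, pseudocount or test (blue circles) and with 1 library left out (orange triangles). Cdon stays between −0.60 and −0.28 and Gli2 between 0.31 and 0.88, Sufu stays below 0, and Ptch1, Boc and Smo lie on both sides of 0. Circles for another filter, or another test except library weights, equal the diamond by construction.

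Of the transcription factors, Gli2 was the most abundant in each library, holding 62.1%, 84.3% and 75.2% of the summed Gli FPKM in siRNA libraries 1 to 3 and 60.8%, 82.7% and 60.7% in control libraries 1 to 3. Gli2, the main activator of the pathway in the mouse embryo, had 2.52, 2.39 and 1.53 FPKM in siRNA libraries 1 to 3, against 0.568, 1.86 and 1.20 FPKM in control libraries 1 to 3. The 2 highest values were siRNA libraries and the 2 lowest were controls, with siRNA library 3 and control library 2 overlapping between them. The means were 2.15 ± 0.537 FPKM with the siRNA and 1.21 ± 0.644 FPKM in the controls (SD, n = 3 each), a ratio of 1.78. The log2 fold change was 0.54 (SE 0.23, 95% interval 0.02 to 1.05), with a Benjamini-Hochberg adjusted p of 0.276 from limma. Without control library 1 it was 0.31 (adjusted p = 0.566). With the ribosomal RNA set removed and columns rescaled it was 0.87 (adjusted p = 0.327). Rescaling alone, with the set kept, already gave 0.72 (adjusted p = 0.351). Over the 17 other settings that gave a value the adjusted p ran from 0.0818 to 0.878. The within-group coefficient of variation of Gli2 was 35.3%, beside a median of 18.3% over the 3544 entries within 2-fold of its mean.

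Gli3, the source of the main repressor of the family, had 1.45, 0.384 and 0.391 FPKM in siRNA libraries 1 to 3, against 0.319, 0.367 and 0.741 FPKM in control libraries 1 to 3. One library in each group, siRNA 1 and control 3, stood above the other two, and the remaining 4 lay between 0.319 and 0.391 FPKM. The means were 0.741 ± 0.612 FPKM with the siRNA and 0.476 ± 0.231 FPKM in the controls (SD, n = 3 each; exact two-sided permutation p = 0.5). The within-group coefficient of variation was 76.1%, higher than that of 94.6% of the 3341 entries within 2-fold of its mean. At the length of its longest annotated transcript these values correspond to about 51.7 to 216.7 fragments per library. Gm6556, a transcript on the opposite strand that overlaps Gli3, had at most 0.18 FPKM. The sources do not say whether strand was used in counting, so reads of the pair may be mixed.

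Gli1, which acts as an activator and is a widely used readout of the pathway, was close to the limit of detection. It had 0.0912, 0.0613 and 0.114 FPKM in siRNA libraries 1 to 3, against 0.0474, 0.0221 and 0.0374 FPKM in control libraries 1 to 3. Each siRNA library lay above each control. The within-group coefficient of variation of Gli1 was 33.2%, beside a median of 83.9% over the 4628 entries within 2-fold of its mean. The means were 0.0888 ± 0.0263 FPKM with the siRNA and 0.0356 ± 0.0128 FPKM in the controls (SD, n = 3 each; exact two-sided permutation p = 0.1, the smallest possible). At the length of its longest transcript these values correspond to about 6.8, 5.2 and 9.3 fragments in siRNA libraries 1 to 3 and 3.8, 2.0 and 3.2 fragments in control libraries 1 to 3. Fitted with no filter, Gli1 had a log2 fold change of 0.07, a value that the added 1 FPKM holds close to 0 (limma, Benjamini-Hochberg adjusted p = 0.681). Gm47200, annotated antisense to Gli1, reached 0.0883 FPKM, within the range of Gli1, so its reads may be mixed with those of Gli1.

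**Figure D4:**
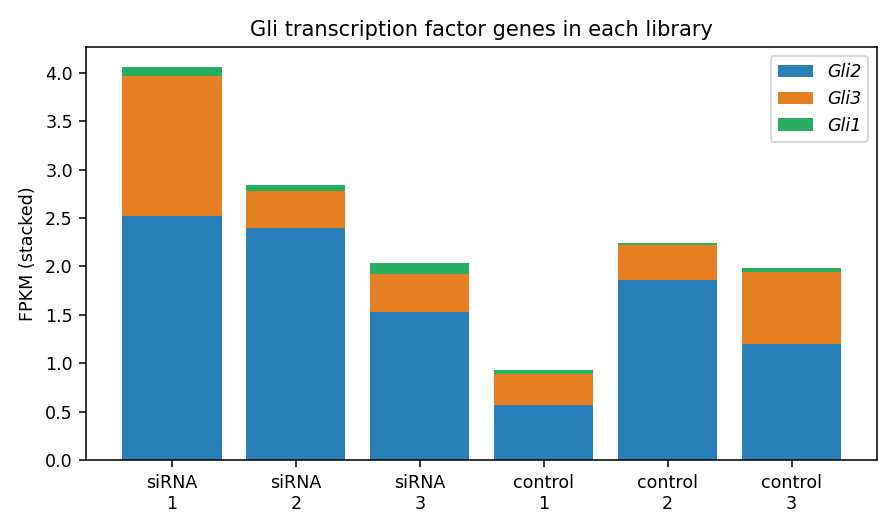
Stacked FPKM of Gli2, Gli3 and Gli1 in each library, with the circHIPK2 siRNA libraries left of the controls. The total is highest in siRNA library 1 (4.06 FPKM) and lowest in control library 1 (0.934 FPKM), and Gli2 makes up 60.7% to 84.3% of each bar.

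Summed over the 3 factors, Gli FPKM was 4.06, 2.84 and 2.04 in siRNA libraries 1 to 3, against 0.934, 2.25 and 1.98 in control libraries 1 to 3. The groups overlapped, with control library 2 above siRNA library 3. Ratios within the family also overlapped. The Gli2 to Gli3 ratio was 1.74, 6.22 and 3.92 in siRNA libraries 1 to 3 and 1.78, 5.06 and 1.62 in control libraries 1 to 3 (exact two-sided permutation p = 0.6, adjusted p = 0.8 over the 4 ratios). The Gli1 to Gli3 ratio was 0.0630, 0.160 and 0.291 in siRNA libraries 1 to 3 and 0.149, 0.0601 and 0.0504 in control libraries 1 to 3 (exact two-sided permutation p = 0.2, adjusted p = 0.4). Neither ratio separated the groups, and both moved with single libraries. The difference in the log2 Gli1 to Gli3 ratio was 0.90, and it was 0.39 without siRNA library 3 and 1.49 without siRNA library 1. That in the log2 Gli2 to Gli3 ratio was 0.51, between 0.10 without siRNA library 2 and 1.04 without control library 2.

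Promoter sequence was available for 7 of the 9 genes from RefSeq on the GRCm38.p6 build, as the 250 bases before 1 annotated start, while the deposited values rest on mm9. Gli1 and Boc had no entry. The Gli binding motif GACCACCCA was searched on both strands. It was found in 0 of the 7 windows, exactly or with up to 1 letter changed, and in 0.218% and 5.82% of all 32536 windows. The GC box GGGCGG, bound by Sp1-type factors, was found on either strand in windows of Ptch1, Hhip, Sufu, Gli2 and Gli3, and in 33.0% of all windows. The windows of Ptch1, Sufu and Gli2 are shown 5′ to 3′ on the gene's strand, as those of a known Gli target, of the inhibitor whose libraries lay apart and of the most abundant Gli gene, with the GC box in capitals.
Ptch1, chr13:63565736-63565985 (minus strand): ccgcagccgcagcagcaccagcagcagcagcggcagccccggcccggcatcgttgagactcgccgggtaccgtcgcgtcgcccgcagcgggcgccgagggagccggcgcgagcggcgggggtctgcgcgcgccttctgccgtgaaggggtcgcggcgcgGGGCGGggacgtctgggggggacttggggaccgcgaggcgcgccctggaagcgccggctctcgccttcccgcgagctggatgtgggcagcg
Sufu, chr19:46396646-46396895 (plus strand): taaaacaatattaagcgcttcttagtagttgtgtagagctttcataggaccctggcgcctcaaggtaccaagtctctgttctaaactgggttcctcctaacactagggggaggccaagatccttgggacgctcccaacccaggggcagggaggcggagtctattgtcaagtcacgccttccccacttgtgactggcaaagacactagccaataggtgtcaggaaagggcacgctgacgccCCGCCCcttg
Gli2, chr1:119053620-119053869 (minus strand): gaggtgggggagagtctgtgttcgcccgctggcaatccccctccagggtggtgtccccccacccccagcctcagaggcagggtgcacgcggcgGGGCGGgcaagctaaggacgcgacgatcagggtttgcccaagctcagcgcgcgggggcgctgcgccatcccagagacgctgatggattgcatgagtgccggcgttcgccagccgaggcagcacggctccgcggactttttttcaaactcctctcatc
From the GENCODE gene start, the Ptch1 window ends 7.9 kb inside the gene, the Cdon window 30.9 kb and the Gli3 window 0.5 kb. The searched windows of these genes are therefore not those before their first annotated start, whereas the Sufu and Gli2 windows end at the gene's annotated start. The Ptch1 window was the richest in CpG dinucleotides, with 41, the Gli2 window had 22 and the Sufu window 8, beside a median of 6 over all windows. A match or its absence describes these windows only.

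Of 54 other hedgehog pathway genes with an entry, 38 averaged at least 1 FPKM and 0 were called (limma with Benjamini-Hochberg adjustment). At an unadjusted p below 0.05, 0 were higher and 3 lower, against 1.83% and 15.5% of all entries. Their median log2 fold change was −0.08, beside −0.12 over all entries tested, with 24 above that overall median and 14 below. All 3 siRNA libraries exceeded all controls for 2 of the 38 and were under all of them for 9, against 2.65% and 22.1% of all entries.

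The 3 ligand genes averaged under 1 FPKM. Shh had 0.199, 0.275 and 0.333 FPKM in siRNA libraries 1 to 3, against 0.129, 0.166 and 0.115 FPKM in control libraries 1 to 3. All siRNA libraries lay above the controls (exact two-sided permutation p = 0.1, the smallest possible), and with no filter the limma adjusted p was 0.835. Dhh averaged 0.934 ± 0.394 FPKM with the siRNA and 0.840 ± 0.162 FPKM in the controls, and Ihh 0.0174 ± 0.0152 and 0.0346 ± 0.0191 FPKM in the same order (SD, n = 3 each). Disp1, which releases lipid-modified ligand, averaged 4.22 ± 0.532 FPKM with the siRNA and 4.54 ± 0.429 FPKM in the controls.

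Of 6 further receptor genes, 3 were tested. The glypican gene Gpc4 had 9.49, 10.65 and 11.77 FPKM in siRNA libraries 1 to 3, against 11.80, 13.80 and 11.82 FPKM in control libraries 1 to 3. The siRNA libraries lay below the controls by a narrow margin, and the log2 fold change was −0.21 (SE 0.11; limma, Benjamini-Hochberg adjusted p = 0.350). Gpc6, another glypican gene, averaged 15.9 ± 2.47 FPKM with the siRNA and 15.1 ± 0.292 FPKM in the controls. Gas1, a membrane-anchored co-receptor, averaged 12.2 ± 0.782 FPKM with the siRNA and 12.3 ± 1.03 FPKM in the controls (SD, n = 3 each), a log2 fold change of −0.01 (95% interval −0.24 to 0.22).

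Of 19 signal relay genes, 18 were tested, with log2 fold changes from −0.30 to 0.26. The lowest was Evc, which encodes a ciliary protein that works with Smo. It had 6.22, 7.73 and 6.17 FPKM in siRNA libraries 1 to 3, against 8.65, 8.30 and 8.49 FPKM in control libraries 1 to 3. The groups did not overlap, and the limma adjusted p was 0.226. Its partner Evc2 averaged 6.84 ± 0.936 FPKM with the siRNA and 7.13 ± 0.356 FPKM in the controls. Stk36, a kinase related to fly Fused, lay at the other end, averaging 1.80 ± 0.303 FPKM with the siRNA and 1.33 ± 0.098 FPKM in the controls. The most abundant relay genes were Prkar1a, a regulatory subunit of protein kinase A, at 88.8 ± 8.04 FPKM with the siRNA and 99.4 ± 6.64 FPKM in the controls, and Csnk1a1, casein kinase 1 alpha, at 51.9 ± 1.76 FPKM and 53.7 ± 3.02 FPKM in the same order (SD, n = 3 each).

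All 8 ciliary transport genes were tested, with log2 fold changes from −0.26 to 0.17. Ift88, an intraflagellar transport gene needed to build the cilium, averaged 1.11 ± 0.117 FPKM with the siRNA and 1.54 ± 0.106 FPKM in the controls (SD, n = 3 each), without overlap (limma, Benjamini-Hochberg adjusted p = 0.278). Arl13b, a ciliary GTPase gene, lay the other way, at 5.41 ± 0.217 FPKM with the siRNA and 4.69 ± 0.206 FPKM in the controls. The 2 most abundant, Ift27 and Kif3a, overlapped between groups, with means of 28.1 ± 2.27 and 20.6 ± 6.48 FPKM with the siRNA and 32.9 ± 6.75 and 21.0 ± 4.002 FPKM in the controls.

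Of 13 known targets outside the 9 genes, 8 were tested and each had a log2 fold change below 0, from −0.67 to −0.03, while 5 of the 8 lay above the median of all entries tested. The lowest was Cdk6, a kinase of the G1 phase. It had 2.79, 2.79 and 1.73 FPKM in siRNA libraries 1 to 3, against 4.49, 3.93 and 4.86 FPKM in control libraries 1 to 3. All siRNA libraries lay below the controls, and the log2 fold change was −0.67 (SE 0.15; limma, Benjamini-Hochberg adjusted p = 0.139). With library weights Cdk6 was called lower (limma adjusted p = 0.0491), and over the 17 alternatives its adjusted p ran up to 0.508. Ccnd1 and Ccnd2, the D-type cyclin genes, averaged 333.1 ± 21.2 and 71.6 ± 8.20 FPKM with the siRNA and 348.2 ± 32.6 and 77.7 ± 6.14 FPKM in the controls (SD, n = 3 each), and overlapped between groups. In bulk samples such as these, fewer cells expressing a gene and less RNA per cell cannot be told apart.

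**Figure D5:**
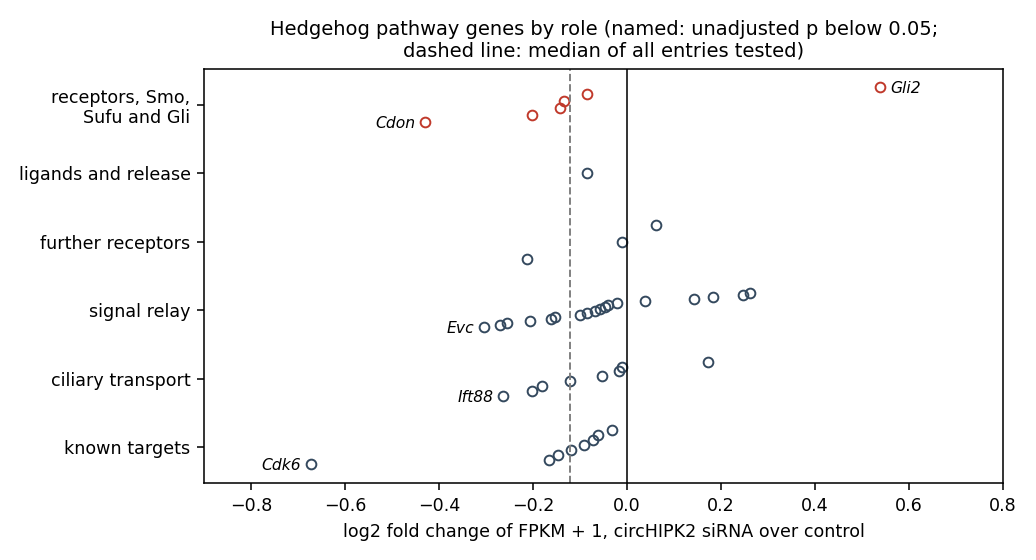
Log2 fold change of FPKM + 1, circHIPK2 siRNA over control, for the 6 tested receptor, Smo, Sufu and Gli genes (red) and 38 other pathway genes by role (dark blue). The dashed line is the median of all entries tested, −0.12. Gli2 at 0.54 and Cdk6 at −0.67 lie farthest out, and 0 of the genes shown was called.

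The genes most like Gli1 and Ptch1 across the 6 libraries were ranked by the root mean square difference in FPKM divided by each gene's own mean. For Ptch1 they were Zfp346 (0.0337), Rnf220 (0.0513) and Fcho2 (0.0552) of 11137 entries searched. Zfp346 had 5.40, 7.45 and 5.78 FPKM in siRNA libraries 1 to 3, against 8.39, 6.98 and 6.16 FPKM in control libraries 1 to 3, high and low in the same libraries as Ptch1. For Gli1 they were Rn7s6 (0.181), Osmr (0.187) and Gadd45b (0.20) of 11138. Osmr, a cytokine receptor gene, had 1.68, 1.39 and 2.26 FPKM in siRNA libraries 1 to 3, against 0.713, 0.815 and 0.465 FPKM in control libraries 1 to 3. The Gli1 profile rests on a few fragments per library, so its nearest genes are a description of 6 values.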

How the data were processed

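The 6 libraries were compared, 3 with circHIPK2 siRNA and 3 with control siRNA, grouped by their labelled titles. The deposited table holds FPKM per gene symbol, computed by the authors. HISAT, StringTie and edgeR with mm9 are named in the submitters' processing notes, with no version or role; the annotation and the use of strand or molecular identifiers are not given in the sources. Per the labels' protocols, libraries were poly(A)-selected, strand-marked by dUTP and sequenced from both ends. FPKM divides by all mapped fragments, so a few very abundant entries lower all others.

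The main test was limma 3.58.1 in R 4.3.3 (mean-variance trend, two-sided) on log2(FPKM + 1) for entries that averaged 1 FPKM or more, with Benjamini-Hochberg adjustment over all entries. It was also run on simulated data, with independent normal spread for each entry. These data held no shift common to a whole library, so such shifts were not covered. For single values, exact permutation tests of 3 against 3 libraries were used, whose smallest p is 0.1. Depth was read from the steps of low FPKM values of genes with 1 GENCODE M21 transcript of at least 500 nt, searched between 10000000 and 30000000 fragments. Between 37.1% and 40.5% of these values lay within 0.05 of a whole multiple, against 10% by chance. With steps of 0.5 fragment the share was 45.1% to 46.6%, although 551 to 658 values per library lay at 1 step and 134 to 208 at 0.5 step, so depths and fragment numbers may be 2 times those given.

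All 9 genes are named. Of other pathway genes, those at an unadjusted p below 0.05 and up to 2 per role by mean FPKM are named, and others were chosen after their values were seen. The likeness search left out Gm, Rik, clone and pseudogene names. A few listed genes are not reported here. The genes and lists were chosen with earlier results of these data known.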

Additional observations from a re-analysis of the deposited data

How the results depend on the processing

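The 18 alternatives changed the pseudocount, filter, scaling, test or libraries. Of the 9 genes, Ptch1, Boc, Cdon, Smo, Sufu and Gli2 were tested in each, except that only Ptch1, Smo and Sufu passed a mean of at least 5 FPKM, and Hhip, Gli1 and Gli3 were tested only with no filter. No gene of the 9 was called where it was tested, and 1 other pathway gene was called lower with library weights (Cdk6). The directions of Cdon, Sufu and Gli2 held in every alternative that gave a value. Another filter, or another test except library weights, leaves the fold change itself unchanged, so those settings could not turn a direction. The log2 fold change turned with the ribosomal RNA set removed for Ptch1 (0.0602), Boc (0.0141) and Smo (0.1165), and for Smo with median-of-ratios scaling (0.0343) and quantile normalization (0.0648). These settings moved the median of all entries from −0.12 to 0.06, −0.01 and 0.00, by construction for the scalings. With 1 library left out, values ran from −0.2604 to 0.0089 for Ptch1, the highest without control library 1. The siRNA-minus-control difference in the log2 Gli1 to Gli3 ratio was 0.90, and −0.12 with 1 added to both values, since Gli1 is far below 1 FPKM. That in the log2 Ptch1 to Smo ratio, −0.06, was 0.08 without siRNA library 1 or control library 1. Over all entries, 16 were higher and 19 lower. The number higher was 10 with no filter, 8 with median-of-ratios scaling, 4 with quantile normalization, 8 with robust moderation and 55 with library weights. The number lower was 8 at a mean of at least 5 FPKM, 12 with quantile normalization and 265 with library weights. Leaving out 1 library gave 2 to 15 higher and 6 to 23 lower, the fewest without siRNA library 3. Without control library 2 or 3, 10 and 8 were higher, and without control library 1, 12 were lower. The causes of these shifts in counts were not tested.

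The replicate number as a block gave 23 higher and 23 lower, with 0 of the 6 tested genes called. Deviations of same-numbered libraries correlated at 0.046, 0.015 and 0.133, the last being the highest of any siRNA and control pair. By contrast, siRNA library 1 correlated best with control library 2, at 0.117. With 3 libraries per group these values cannot tell whether same-numbered libraries were paired. At 18320000 to 21900000 fragments per library, Gli1 rests on a few fragments. Neither Gli1 nor Shh was called with no filter, where the added 1 FPKM holds such low values close to 0. Whether more depth would resolve a difference in them was not tested.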

Other observations

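Hedgehog signalling is best known in the forebrain for ventral and oligodendrocyte fates, and genes of these fates were present. Olig2, an oligodendrocyte-lineage factor, had 189.7, 224.0 and 196.4 FPKM in siRNA libraries 1 to 3, against 245.5, 221.4 and 258.8 FPKM in control libraries 1 to 3, and the groups overlapped. Nkx2-2, another factor of that lineage, averaged 20.1 ± 4.35 FPKM with the siRNA and 22.7 ± 4.42 FPKM in the controls (SD, n = 3 each). The ventral genes Nkx2-1 and Lhx6 had at most 0.02 FPKM in any library. The dorsal genes Emx2, Lhx2 and Pax6 averaged above 1 FPKM, whereas Emx1 had at most 0.114 FPKM and Wnt8b at most 0.0199 FPKM, although both are known from the developing hippocampus.

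Btrc, a ubiquitin ligase gene that marks Gli proteins for processing, varied widely among siRNA libraries, at 3.22, 6.71 and 9.48 FPKM in libraries 1 to 3, against 5.73, 4.55 and 5.25 FPKM in control libraries 1 to 3. The log2 fold change was 0.18 (SE 0.28), and the groups overlapped.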
